A study of Mus musculus with 4 samples.

Results

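Complement genes of the brain are described here through the 9 genes C1qa, C1qb, C1qc, C1ra, Serping1, Cd55, C3ar1, C5ar1 and Itgam. Every probe set that the platform annotation assigns to 1 of these genes alone was kept, which gave 16 of the 45037 probe sets tested and 9 of the 18193 genes represented on the array. The tissue was brain, named as cerebrum in the sample descriptions, from male C57BL/6 mice aged 8 to 9 weeks. The groups were 2 Bcas1 knockout mice (-/-) and 2 wild-type mice (+/+), all bred from heterozygous parents, with 1 Affymetrix array per mouse. The sources used here do not say how the allele was made, whether the animals were littermates or which part of Bcas1 is missing. Bcas1 encodes a protein of myelinating oligodendrocytes, and the comparison asks how complement transcripts differed in brains labelled as knockout for that gene.

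Complement is a cascade of secreted proteins that tags targets for removal, recruits phagocytes and can open pores in membranes. The classical route starts when C1q, a collagen-like recognition protein built from 3 chains, binds a target and switches on the proteases C1r and C1s. C1 inhibitor and the membrane protein CD55 hold the cascade back, while the small fragments C3a and C5a act on their own receptors and the integrin CR3, of which Itgam encodes the alpha subunit, lets phagocytes take up tagged material. In the healthy brain microglia are the main source of C1q, and complement tagging of synapses is known from development and from disease models.

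Each level is an RMA value on a log2 scale, in which a step of 1 is a doubling, and a difference is knockout minus wild type. The 4 arrays had medians of 6.49 to 6.51 over the probe sets tested and correlated with each other at 0.9955 to 0.9978 across probe sets, which are not independent replicates. The brightest Bcas1 probe set measured 11.05 and 10.75 in the knockout mice, against 12.17 and 12.21 in the wild-type mice. The 2 dimmer Bcas1 probe sets went the other way without overlap. One measured 5.86 and 6.38 in the knockout mice, against 5.37 and 5.34 in the wild-type mice, and the other 5.89 and 6.00 in the knockout mice, against 5.11 and 5.50 in the wild-type mice. None of the 3 passed the threshold in limma (adjusted p of 0.742, 1 and 1). How the gene was altered is unknown here, so these probe sets are an incomplete check of the labels. Markers of neurons, astrocytes and oligodendrocytes fixed in lists had mean levels of 11.18 to 12.40 on every array, so the defining markers of the labelled tissue were present. The second knockout array stands apart by 5 of 6 genes of nasal epithelium and glands (Omp is the exception). Obp1a, for example, measured 3.46 and 8.92 in the knockout mice, against 3.41 and 4.15 in the wild-type mice. Values without this array are given for several results below.

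None of the 16 complement probe sets passed the threshold in limma, an adjusted p under 0.05 over all 45037 probe sets. Over all probe sets 0.00444% passed. Each of the 16 had an adjusted p of 1 in limma, and over the other settings tried, arrays left out included, it was between 0.573 and 1. Across the 16 the differences ran from -0.525 to 0.085 with a median of -0.045, where all probe sets had a median of 0. Of the 16, 12 were negative, against 22228 of 45037 on the whole array. Several of them share a gene. By brightest probe set 6 of the 9 genes were negative, against 8290 of 18193 over all genes. The differences of C1qa and of the second C3ar1 set, both -0.010, became 0 with arrays centred on their median. The median size of a difference, sign ignored, was 0.07 for the complement probe sets and 0.065 for all probe sets. At an unadjusted p under 0.05 there was 1 complement probe set, of C3ar1 and lower in the knockout, where 3.42% of all probe sets lay under that value. With 2 mice per group these results do not show that the genes were alike in both genotypes, and an interval is given for each difference below. With 2 arrays against 2, the smallest two-sided p of an exact permutation test is 0.333.

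**Figure D1:**
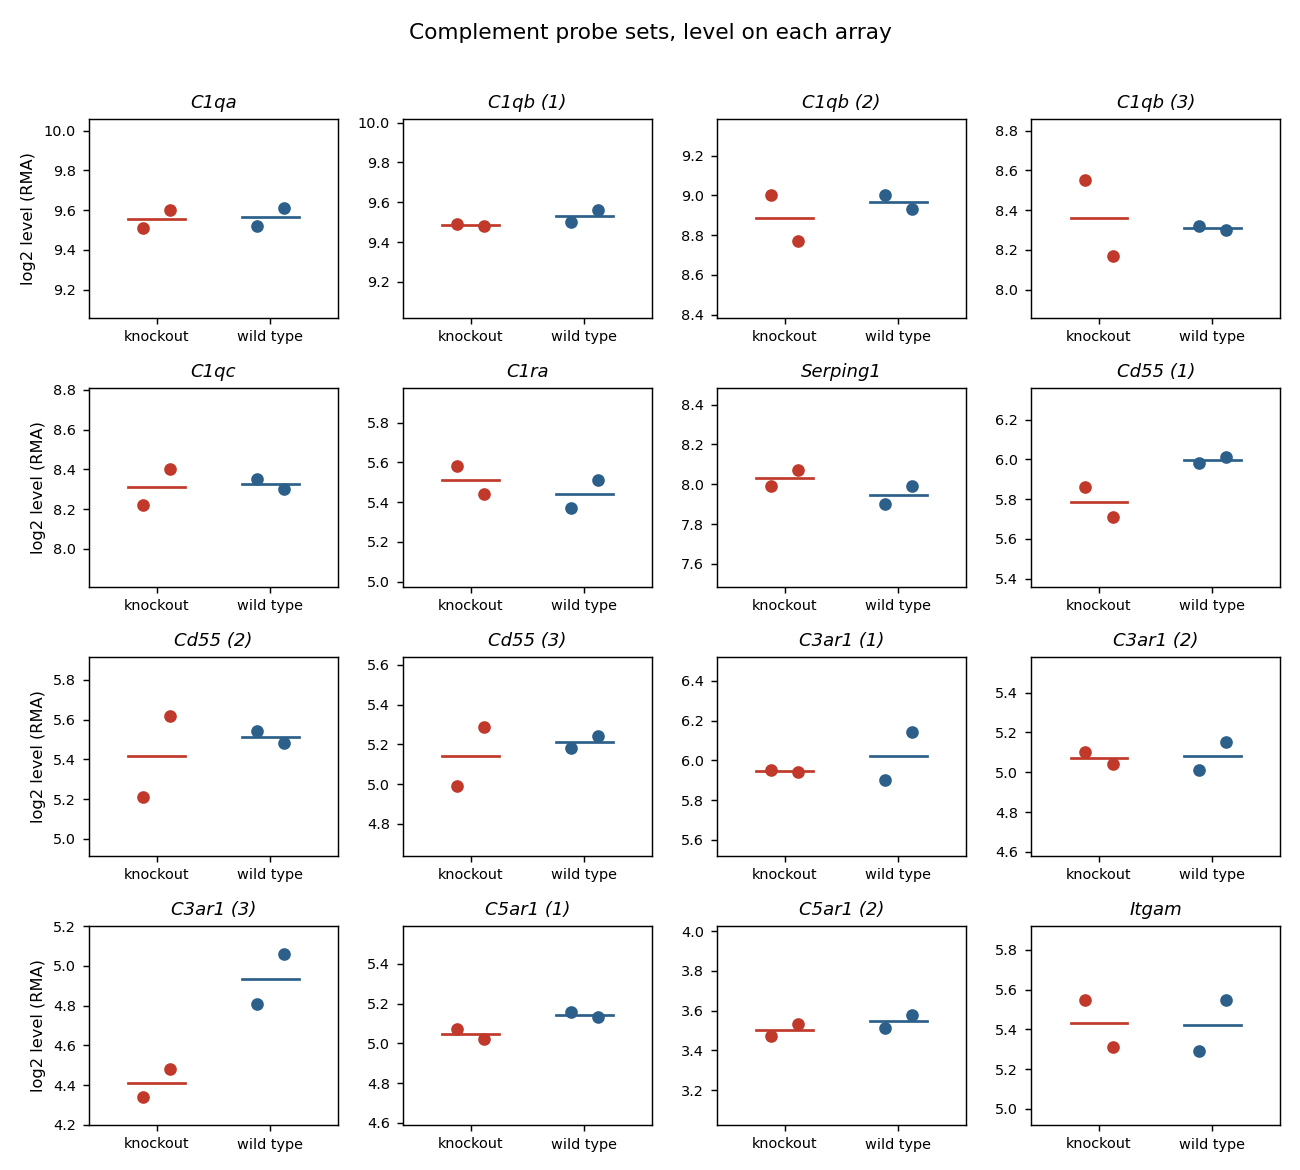
Log2 level of each of the 16 complement probe sets on every array, with knockout mice in red left of wild-type mice in blue and a line at each group mean (n = 2 each). Within a genotype the left point is mouse 1 and the right point mouse 2, numbers in brackets order the probe sets of a gene from bright to dim, and every panel spans 1 log2 unit. The genotypes lie apart most clearly for the dimmest C3ar1 probe set, at 4.34 and 4.48 in the knockout mice against 4.81 and 5.06 in the wild-type mice.

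The genotypes did not overlap in 4 of the 16 probe sets, the brightest of C1qb, Cd55 and C5ar1 and the dimmest of C3ar1. All 4 were lower in the knockout and 0 were higher. On the whole array 27.1% of probe sets had no overlap, 13.2% with the knockout lower and 13.9% with it higher, so 4 of 16 is close to the share over all probe sets. Requiring a difference of at least 1.2-fold as well left 1 complement probe set, of C3ar1, where 2.95% of all probe sets met both conditions and 1.46% did so with the knockout lower. In 3 of the 16, those of Cd55, C3ar1 and C5ar1 just named, the difference between genotypes was larger than the gap between the mice of either genotype, which was so for 18.4% of all probe sets.

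**Figure D2:**
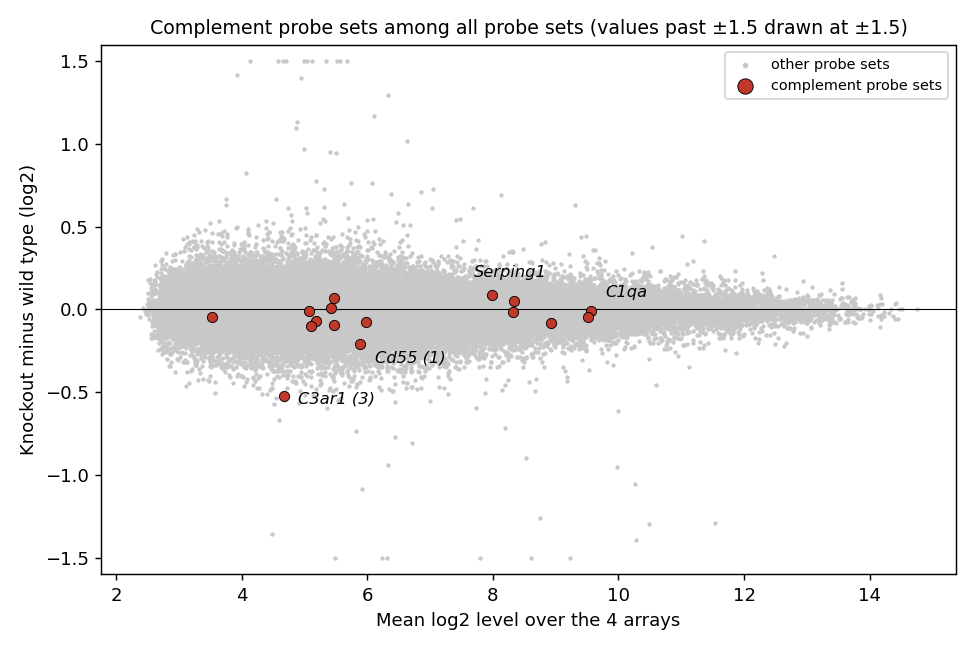
Difference between knockout and wild type (log2, vertical axis) against the mean level over the 4 arrays (log2, horizontal axis) for all 45037 probe sets in grey and the 16 complement probe sets in red. The complement probe sets lie in the body of the cloud from dim to bright levels, and C3ar1 (3), its dimmest probe set, lies at its lower edge at -0.525.

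The chains of C1q, the recognition molecule of the classical route, were read by 5 bright probe sets, and their levels differed little between genotypes. C1qa, which encodes the A chain, measured 9.51 and 9.60 in the knockout mice, against 9.52 and 9.61 in the wild-type mice. The gap between the 2 mice of each genotype was thus wider than the difference of -0.010 (SE 0.080) between the genotypes. Its 95% interval in limma ran from -0.22 to 0.20. C1qc, the C chain, measured 8.22 and 8.40 in the knockout mice, against 8.35 and 8.30 in the wild-type mice. Both wild-type values lay between the knockout values, and the difference was -0.015 (SE 0.091) with an interval of -0.25 to 0.22. These probe sets were brighter than 85.7% (C1qa) and 73.1% (C1qc) of all probe sets.

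C1qb, the B chain, had 3 probe sets that did not all point the same way. The brightest measured 9.49 and 9.48 in the knockout mice, against 9.50 and 9.56 in the wild-type mice, so the groups were kept apart by a single hundredth of a log2 unit. The difference was -0.045 (SE 0.071). The second measured 9.00 and 8.77 in the knockout mice, against 9.00 and 8.93 in the wild-type mice, a difference of -0.080 (SE 0.10). The dimmest measured 8.55 and 8.17 in the knockout mice, against 8.32 and 8.30 in the wild-type mice, a difference of 0.050 (SE 0.14). In the second and the dimmest set the first knockout mouse was at or above the wild-type values and the second below them. The widest of the 5 C1q intervals, that of this dimmest set, ran from -0.32 to 0.42. RNA of whole tissue was measured, so fewer cells of a type and less RNA per cell cannot be told apart in any of these values.

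The mean of the brightest C1qa, C1qb and C1qc probe sets was 9.07 and 9.16 in the knockout mice, against 9.12 and 9.16 in the wild-type mice, a range of 0.087 over the 4 arrays. The 5 probe sets with the most similar course over the arrays, after each was centred on its own mean, were those of Numa1, Hs2st1, Raph1, Asb3 and Nt5dc3. Their root mean square distance from the C1q mean was 0.0028 to 0.0049 over 4 arrays, which is under the hundredth to which the levels are rounded. Of 16345 candidate probe sets 1239 lay within 0.03, a limit set after the distances were seen, so likeness over 4 arrays with so small a range does not single out particular genes.

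C1qb and C1qc are neighbours in the C1q cluster on chromosome 4, and the promoter table of RefSeq (build GRCm38.p6) held a window for both. A window is 300 bases long, from 250 before to 50 after the annotated start, and 7 of the 9 genes had one. Both genes are transcribed from the minus strand, C1qb with the window chr4:136886151-136886450 and C1qc with chr4:136892865-136893164. They are shown because the C1q chains have the brightest probe sets of the 9 genes and are made by the same cells. The letters in capitals are matches on either strand to GAGGAA or to AGGAAGT, core letters of the type bound by PU.1, a transcription factor of myeloid cells.
C1qb: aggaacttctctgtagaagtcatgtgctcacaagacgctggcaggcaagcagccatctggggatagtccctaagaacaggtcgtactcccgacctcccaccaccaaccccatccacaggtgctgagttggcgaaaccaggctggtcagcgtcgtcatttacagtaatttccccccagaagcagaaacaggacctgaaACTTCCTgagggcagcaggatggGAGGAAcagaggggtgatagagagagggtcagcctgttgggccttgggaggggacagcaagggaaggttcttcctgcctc
C1qc: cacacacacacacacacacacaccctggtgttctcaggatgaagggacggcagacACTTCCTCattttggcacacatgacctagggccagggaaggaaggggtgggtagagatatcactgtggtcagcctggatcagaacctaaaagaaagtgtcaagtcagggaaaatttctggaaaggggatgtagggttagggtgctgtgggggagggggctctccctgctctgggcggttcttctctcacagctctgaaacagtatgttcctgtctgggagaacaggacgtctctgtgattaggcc
C1qb has AGGAAGT on the opposite strand from position -53 and GAGGAA from position -30, counted from the annotated start. In C1qc both letter strings overlap, on the opposite strand, from positions -195 and -193. GAGGAA was found in 4 of the 7 complement windows (C1qb, C1qc, C1ra and Itgam) and in 28.3% of all 32851 windows. AGGAAGT was found in 3 of the 7 (C1qb, C1qc and C5ar1) and in 9.4% of all windows. These strings were chosen with the sequences in view, and a match describes letters, not binding.

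C1ra, the protease that C1q switches on, measured 5.58 and 5.44 in the knockout mice, against 5.37 and 5.51 in the wild-type mice. The groups overlapped, and the difference was 0.070 (SE 0.094) with an interval of -0.18 to 0.32. This probe set was dim, brighter than 34.0% of all probe sets. A further dim probe set names both C1ra and its near-identical copy C1rb and cannot be assigned to 1 of them. It measured 3.57 and 3.18 in the knockout mice, against 3.20 and 3.05 in the wild-type mice, a difference of 0.25 (SE 0.15) with overlapping groups.

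Of the inhibitors, Serping1 encodes C1 inhibitor, a serpin that removes active C1r and C1s. It measured 7.99 and 8.07 in the knockout mice, against 7.90 and 7.99 in the wild-type mice. The lower knockout value equalled the higher wild-type value. The difference was 0.085 (SE 0.079), the most positive among the 16, with an interval of -0.12 to 0.29. Without the second knockout array it was 0.045. Serping1 RNA is also made by fibroblasts and vascular cells. The list of meningeal fibroblast markers had mean levels of 8.57 and 8.76 in the knockout mice, against 8.36 and 8.42 in the wild-type mice, with 8 of 8 genes positive, 0 past the threshold in limma and 4 at an unadjusted p under 0.05, which 2.75% of all genes had. The mean difference of the list was 0.28, and 0.185 without the second knockout array. Their part in the Serping1 value was not tested.

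Cd55 encodes decay-accelerating factor, a membrane-anchored protein that breaks up the enzymes which cleave C3 and C5. Its brightest probe set measured 5.86 and 5.71 in the knockout mice, against 5.98 and 6.01 in the wild-type mice. Both knockout values lay below both wild-type values. The difference was -0.21 (SE 0.084), a ratio of 0.865, and its interval of -0.43 to 0.011 reached just past 0. Leaving out each array in turn gave -0.285 to -0.135, the last without the second knockout array.

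The other 2 Cd55 probe sets had overlapping groups. The second measured 5.21 and 5.62 in the knockout mice, against 5.54 and 5.48 in the wild-type mice, and the dimmest 4.99 and 5.29 in the knockout mice, against 5.18 and 5.24 in the wild-type mice. In both, the first knockout mouse was the lowest of the 4 and the second knockout mouse the highest. The differences were -0.095 (SE 0.15) and -0.070 (SE 0.12), and without the second knockout array -0.30 and -0.22. In the brightest set the second knockout mouse was the lowest, so the 3 probe sets of the gene ordered the knockout mice differently.

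A related gene, Cd55b, encodes a second mouse form of the protein. A probe set naming both Cd55b and Cd55 measured 3.73 and 3.85 in the knockout mice, against 4.06 and 4.01 in the wild-type mice, a difference of -0.245 (SE 0.080) without overlap. Cd55b by itself measured 2.74 and 2.64 in the knockout mice, against 2.95 and 3.11 in the wild-type mice, a difference of -0.34 (SE 0.092) without overlap and with an adjusted p of 1 in limma. Its level was above only 1.25% of all probe sets, and no detection calls came with the values, so signal and background cannot be separated there. The genes are near-identical in parts, and which copy each probe set reads was not tested.

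**Figure D3:**
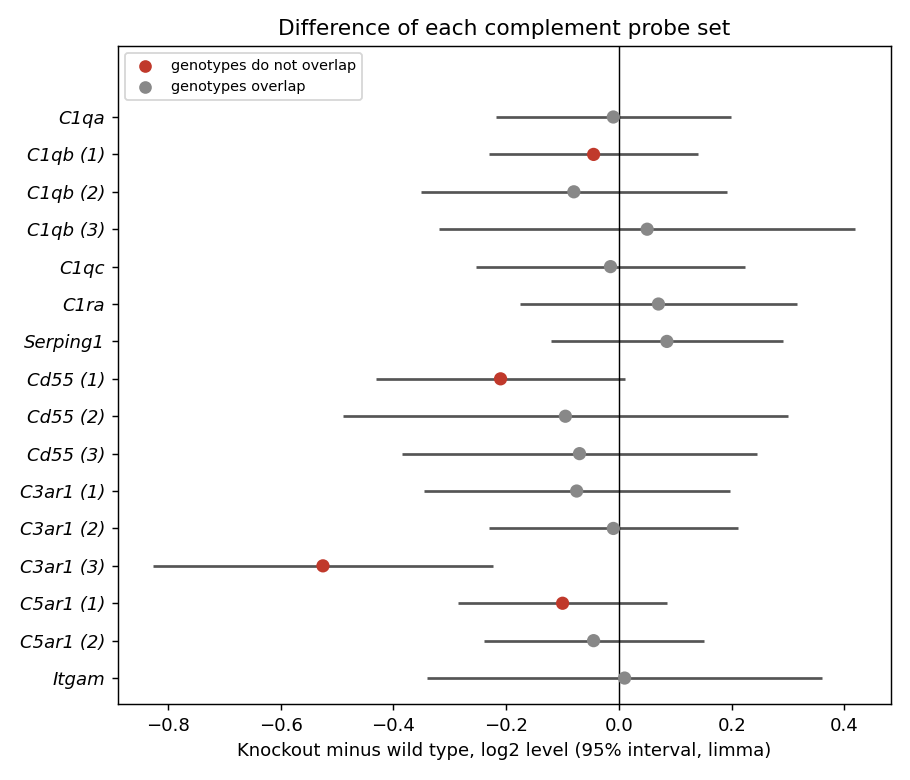
Difference between knockout and wild type (log2, horizontal axis) of each of the 16 complement probe sets with its 95% interval from limma; red points mark probe sets in which the 2 knockout and the 2 wild-type values do not overlap. The interval of C3ar1 (3), from -0.83 to -0.22, is the only one of the 16 that leaves out 0, before any adjustment for the number of probe sets.

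C3ar1 encodes the receptor for C3a, found on microglia and other myeloid cells, and its 3 probe sets gave unequal differences. The brightest measured 5.95 and 5.94 in the knockout mice, against 5.90 and 6.14 in the wild-type mice. The knockout values lay between the wild-type values, and the difference was -0.075 (SE 0.10). The second measured 5.10 and 5.04 in the knockout mice, against 5.01 and 5.15 in the wild-type mice, again inside the wild-type range, with a difference of -0.010 (SE 0.084). The dimmest measured 4.34 and 4.48 in the knockout mice, against 4.81 and 5.06 in the wild-type mice. Here both knockout values were below both wild-type values.

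The difference of that dimmest set was -0.525 (SE 0.12), a ratio of 0.695, with an unadjusted p of 0.0070 and an adjusted p of 1 in limma. Without the second knockout array it amounted to -0.595, and it stayed at -0.65 to -0.40 over the 4 ways of leaving out 1 array. The platform annotation ties the 2 brighter sets to the RefSeq transcript of C3ar1 and the dimmest to another sequence record. The sources used here do not place that record within the gene. The set was brighter than 21.8% of all probe sets. The intervals of the brighter sets, -0.35 to 0.20 and -0.23 to 0.21, did not include -0.525. The interval of the dimmest set itself, -0.83 to -0.22, overlapped both of them, the second only narrowly. Whether the probe sets differ from each other was not tested. Among the other members, the second Cd55 set and the dimmer C5ar1 set are also tied to another sequence record. For the second and the dimmest C1qb set the annotation gives no record.

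C5ar1 encodes the receptor for C5a, a strong attractant of neutrophils and macrophages. Its brighter probe set measured 5.07 and 5.02 in the knockout mice, against 5.16 and 5.13 in the wild-type mice. The values were narrowly apart, with a difference of -0.10 (SE 0.071) and an interval of -0.29 to 0.085. The dimmer set measured 3.47 and 3.53 in the knockout mice, against 3.51 and 3.58 in the wild-type mice, a difference of -0.045 (SE 0.075) with overlapping groups. It was above only 7.55% of all probe sets.

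Itgam, the alpha subunit of CR3 and known as CD11b, had 1 probe set. It measured 5.55 and 5.31 in the knockout mice, against 5.29 and 5.55 in the wild-type mice. The mice of a genotype differed by 0.24 and 0.26, while the genotype means differed by 0.010 (SE 0.13). The interval ran from -0.34 to 0.36, and the set was brighter than 33.3% of all probe sets. For Itgam, C3ar1, C5ar1, C1ra and Cd55 the levels were below the median of all probe sets, 10 of the 16 sets in all, and fold changes of dim sets are compressed in RMA values.

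The promoter windows of C3ar1 (chr6:122856108-122856407) and Cd55 (chr1:130462695-130462994), both on the minus strand, are given because these genes had the most negative differences. Neither window held GAGGAA or AGGAAGT, so both are in lower case throughout. A further string, TATAAA, was also searched but not put in capitals. It occurs in the C3ar1 window from position -235. It was found in 1 of the 7 complement windows and in 13.6% of all windows.
C3ar1: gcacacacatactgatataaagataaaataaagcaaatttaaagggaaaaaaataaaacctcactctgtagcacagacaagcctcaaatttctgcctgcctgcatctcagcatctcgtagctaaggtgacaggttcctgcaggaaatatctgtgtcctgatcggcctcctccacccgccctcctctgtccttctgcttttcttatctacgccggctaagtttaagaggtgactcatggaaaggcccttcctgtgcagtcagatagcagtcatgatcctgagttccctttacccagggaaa
Cd55: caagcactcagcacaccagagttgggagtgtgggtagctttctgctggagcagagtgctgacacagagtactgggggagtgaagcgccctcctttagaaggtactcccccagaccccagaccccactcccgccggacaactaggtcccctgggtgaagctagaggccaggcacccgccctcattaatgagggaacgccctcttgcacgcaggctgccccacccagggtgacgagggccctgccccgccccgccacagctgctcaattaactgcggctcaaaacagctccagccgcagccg
The windows differ in base composition. The share of G and C was 46.0% in C3ar1 and 63.3% in Cd55, where the median of all windows was 52.7%. CG pairs numbered 5 in C3ar1 and 12 in Cd55, with a median of 7 over all windows.

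Most of the members are made by microglia or other myeloid cells, so marker lists of those cells were set beside them. Of 14 measured microglial markers 8 had positive and 5 negative differences, 1 had none, and 0 passed the threshold in limma or had an unadjusted p under 0.05. The list had mean levels of 8.57 and 8.61 in the knockout mice, against 8.57 and 8.58 in the wild-type mice. Trem2, a lipid receptor, differed by 0.19 (SE 0.097) and Cd68, a lysosomal protein, by 0.145 (SE 0.070). Cx3cr1, the fractalkine receptor, differed by -0.115 (SE 0.077) and Ctss by -0.105 (SE 0.069). The genotypes did not overlap in these 4 of the 14, 2 higher and 2 lower in the knockout, where 28.3% of all genes had no overlap. Of 8 border macrophage and monocyte markers 5 were negative, and 0 passed or had an unadjusted p under 0.05, with list means of 5.86 and 6.04 in the knockout mice, against 5.94 and 6.06 in the wild-type mice. On these arrays the C1q mean, the microglial list and the border macrophage list were all lowest in the first knockout mouse. For the microglial list this was by a small margin, 8.566 against 8.573 in the first wild-type mouse. The lists of erythroid cells, endothelium and nasal epithelium and glands were lowest there too, and the other marker lists on another array.

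Neutrophils carry Itgam, C5ar1 and C3ar1 as well, and their markers took another course. Of 9 measured neutrophil markers 9 had positive differences, 0 passed the threshold in limma and 4 had an unadjusted p under 0.05, against 2.75% of all genes. The list means were 5.62 and 5.96 in the knockout mice, against 5.43 and 5.33 in the wild-type mice, a mean difference of 0.41, and of 0.24 with 7 of 9 positive without the second knockout array. The markers were not raised evenly. Their differences ran from 0.005 to 1.295 with a median of 0.23, and were largest for S100a9 (1.295), S100a8 (1.17) and Ngp (0.50). The differences of the Itgam, C5ar1 and C3ar1 probe sets ran from -0.525 to 0.010. S100a8, a calcium-binding protein abundant in neutrophils, measured 6.36 and 7.02 in the knockout mice, against 5.60 and 5.44 in the wild-type mice. The part of these cells in the complement values was not tested.

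**Figure D4:**
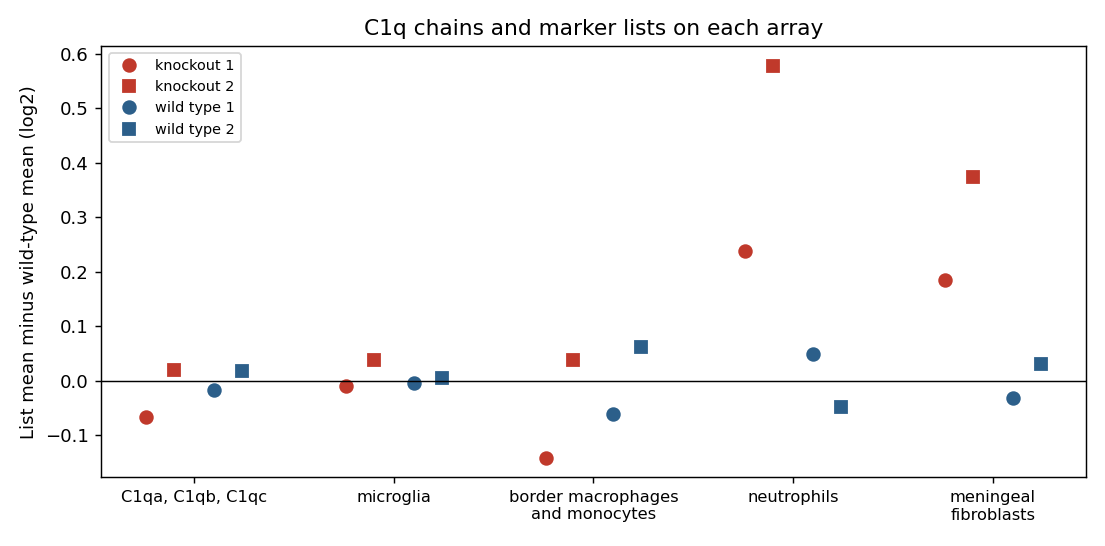
Mean level of the C1q chains and of 4 marker lists on each array, as the difference from the mean of the 2 wild-type arrays (log2), with knockout mice in red and wild-type mice in blue. The C1q chains and the microglial list stayed within 0.1 of the wild-type mean on all 4 arrays, while the neutrophil and fibroblast lists were higher on both knockout arrays and most so on the second.

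The rest of the pathway was read from a list of 57 complement genes, the 9 included, of which 47 had a probe set of their own. Each gene stood by its brightest set. None passed the threshold in limma, where 0.0055% of all genes did, and 1, Cd55b, had an unadjusted p under 0.05, against 2.75% of all genes. The median difference was 0.010, against 0.0050 over all 18193 genes, with 25 positive, 21 negative and 1 at 0. The genotypes did not overlap in 10 genes with the knockout higher and 5 with it lower, 15 of 47. Over all genes the share with no overlap was 15.5% with the knockout higher and 12.8% with it lower, 28.3% together.

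On the lower side the 4 genes furthest from 0 without overlap were Cd55b, Cfp, Cd55 and C5ar1. Cfp encodes properdin, which stabilises the enzyme of the alternative route. It measured 8.40 and 8.35 in the knockout mice, against 8.81 and 8.53 in the wild-type mice, a difference of -0.295 (SE 0.11) with an interval of -0.60 to 0.0055. Leaving out each array in turn gave -0.435 to -0.155, the last without the first wild-type array, which held the highest value. The second Cfp probe set differed by -0.030.

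On the higher side the 4 genes were Mbl2, C1s1, Hc and C8b, all from dim levels. Mbl2, a mannose-binding lectin that starts the lectin route, measured 4.09 and 4.11 in the knockout mice, against 3.72 and 3.95 in the wild-type mice, a difference of 0.265 (SE 0.10). C1s1, the protease partner of C1r, measured 4.54 and 4.49 in the knockout mice, against 4.12 and 4.41 in the wild-type mice, a difference of 0.25 (SE 0.12). Hc, which encodes C5, differed by 0.225 (SE 0.094), and C8b, a chain of the membrane pore, by 0.20 (SE 0.099). In all 4 the first wild-type array had the lowest value, and without it the differences were smaller, 0.15 for Mbl2, 0.105 for C1s1, 0.125 for Hc and 0.095 for C8b. Mbl2, Hc and C8b are known mainly as liver products, and their probe sets were above 12.7%, 22.4% and 27.3% of all probe sets.

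Values of 3 further regulators with bright probe sets, chosen after they were seen, are given beside Cfp. Clu, which encodes clusterin, an astrocyte protein that blocks pore assembly, measured 13.17 and 13.24 in the knockout mice, against 13.14 and 13.19 in the wild-type mice, a difference of 0.040 (SE 0.074). Cr1l, which encodes Crry, the rodent membrane inhibitor of C3 cleavage, differed by 0.090 (SE 0.087). Cd59a, which blocks the membrane pore, measured 8.48 and 8.52 in the knockout mice, against 8.35 and 8.43 in the wild-type mice. The difference was 0.11 (SE 0.074) without overlap. All 3 were positive, but not every bright gene of the list was. Susd4 differed by -0.015 (SE 0.074) and Csmd1 by -0.13 (SE 0.26), while Vtn, Csmd2 and Csmd3 were positive.

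**Figure D5:**
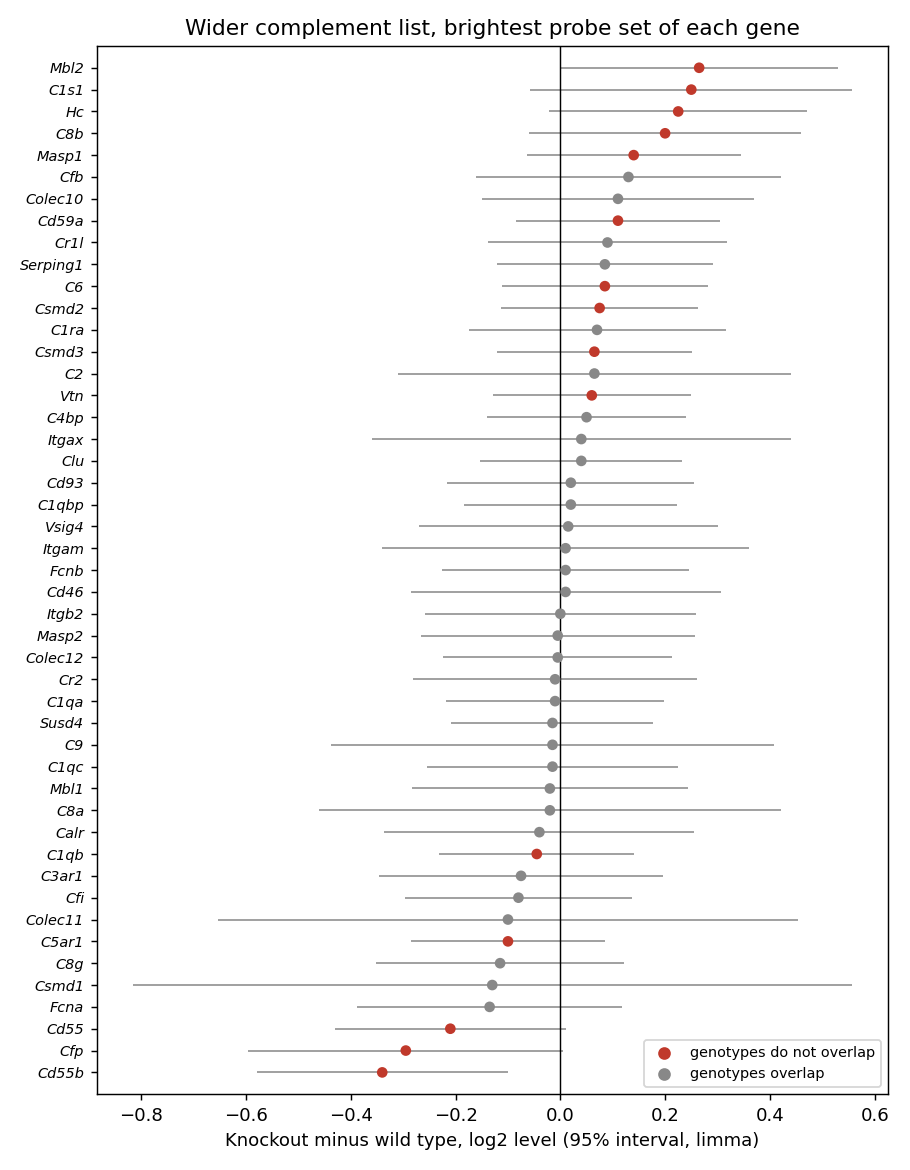
Difference between knockout and wild type (log2, horizontal axis) with its 95% interval from limma for the 47 measured genes of the complement list, each by its brightest probe set and ordered by difference. Red points mark the 15 genes whose genotypes do not overlap, 10 to the right of 0 and 5 to the left.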

How the data were processed

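Brain RNA of 2 Bcas1 knockout and 2 wild-type mice was measured, 1 array per mouse, and groups were taken from the sample titles. Per the labels' protocols, DNase-treated total RNA was biotin-labelled from 100 ng with a 3' IVT Express kit, which reads transcript ends. The deposited table holds log2 levels made by the authors with RMA, according to the submitters' processing notes; the sources used here name no software, version or settings. The levels are rounded to 2 decimals and carry no detection calls. Arrays have no depth; precision is limited by their number.

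Of 45101 probe sets 64 Affymetrix controls were left out. The platform annotation gave 34945 of the rest 1 gene, 932 several and 9160 none; symbols were checked by Entrez number in the RefSeq table of GRCm38.p6, and 0 changed. Knockout was compared with wild type by limma 3.58.1 (R 4.3.3; lmFit, eBayes, two-sided, 2 residual and 2.74 prior degrees of freedom), with p-values adjusted by Benjamini-Hochberg across the 45037 probe sets and called under 0.05. SEs, intervals and p-values rest on the spread between 2 mice per group, combined by eBayes with a value drawn from all probe sets. They are thus not the spread of the single probe set alone. The fit was run on simulated data with planted differences larger than any of the complement members. That checks the estimate, not whether small differences would be found. Named genes are all members, Bcas1, the 4 highest and 4 lowest non-overlapping genes of the complement list, up to 4 genes of each marker list and the 5 probe sets most like C1q; others are marked. Of the lists of erythroid cells, endothelium and choroid plexus, 0 genes passed, with median differences of 0.075, 0.055 and 0.080. Members and lists were chosen with earlier results of these data known. Other settings were a filter on dim probe sets, arrays centred on their median, quantile normalization run again, a variance trend with robust fit, the replicate block, gene means over probe sets, other fold limits and leaving out each array.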

Additional observations from a re-analysis of the deposited data

How the results depend on the processing

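No complement probe set and no gene of the complement list passed the threshold under any setting tried. Over all probe sets 2 passed. With a filter on dim probe sets it was 1, with the trend and robust variance 10, with the replicate block 0, and 0 whichever array was left out. Non-overlap at 1.2-fold or more was met by 1329 probe sets and 1 of the complement members. It was met by 219 and 0 with the filter on dim probe sets, which keeps 6 of the 16, by 5777 and 2 at 1.1-fold, by 42 and 0 at 1.5-fold, and by 2476 to 5264 and 1 to 2 when an array was left out, where a lone array makes non-overlap easier to meet. Under the replicate block the adjusted p of the 16 in limma was 0.847 to 0.993. Deviations of same-numbered mice correlated at 0.241 across probe sets, which with 2 pairs does not establish a pairing. Leaving out 1 array kept the sign of 6 of the 16 differences. With 2 mice per group, a difference can lose its sign only where it is small beside a gap between mice of 1 genotype. The other 10 were no larger than the wider gap. This also held for the brightest C1qb, the Serping1 and the dimmer C5ar1 set, which kept their sign. The ranges of the 10 were -0.055 to 0.035 for C1qa, and -0.195 to 0.035 and -0.14 to 0.24 for the second and the dimmest C1qb set. They were -0.105 to 0.075 for C1qc, 0 to 0.14 for C1ra and -0.12 to 0.14 for Itgam. For the second and the dimmest Cd55 set they were -0.30 to 0.11 and -0.22 to 0.080. For the first and second C3ar1 sets they were -0.195 to 0.045 and -0.080 to 0.060. What set the mice of a genotype apart was not tested. The marker lists without the second knockout array were added after seeing the data. Averaging the probe sets of a gene left the complement list at 0 calls.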
